A study of Mus musculus with 20 samples.

Results

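Klf17, earlier named Zfp393, encodes a zinc finger transcription factor and is 1 of 9607 genes named on the Affymetrix MOE430B mouse array. It is read by 2 of 22511 probe sets (controls left out), 1456561_s_at and 1438899_at, called here the brighter and the dimmer probe set. They were chosen as every probe set annotated to the gene, without regard to its values. The array was hybridized with RNA from mouse oocytes, from 1-cell, 2-cell and 8-cell embryos and from blastocysts, with 4 arrays for each and 20 in all. The labels give no strain, age, treatment or number of pooled embryos for any stage, and say that all RNA went through repeated amplification by in vitro transcription. Nothing in the labels says that the 4 arrays of a stage came from separate pools, so a p here reflects nothing but the scatter among the arrays, part or all of which may be technical.

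Kruppel-like factors bind GC-rich and CACCC elements of promoters through zinc fingers near the end of the protein, and can activate or repress transcription depending on the partners they recruit. Klf17 was described as a zinc finger gene of germ cells. In the mouse it is known as a maternal transcript of the oocyte that is also found in early cleavage embryos, whereas in the human embryo its protein marks the pluripotent epiblast.

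The bases before the annotated start of the gene are shown because Klf17 is itself a regulated gene and its start region can be read for the elements that its own family binds. They are the 250 bases upstream of the RefSeq start, chr4:117765667-117765916 on the minus strand of GRCm38.p6, written 5′ to 3′ along the gene with CACCC, GC and CCAAT boxes in capitals.
Klf17: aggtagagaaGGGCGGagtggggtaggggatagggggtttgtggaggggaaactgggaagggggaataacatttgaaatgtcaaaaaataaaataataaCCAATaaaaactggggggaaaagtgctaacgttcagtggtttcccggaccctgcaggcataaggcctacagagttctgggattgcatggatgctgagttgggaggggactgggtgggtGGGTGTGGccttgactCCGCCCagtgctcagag
The CACCC box, searched as CCACACCC on both strands, matched once, from 33 to 26 bases before the start. The shorter core CACCC was not searched by itself, so other copies of it in the window are not in capitals. The figures that follow are for the longer box. It was present in the same window of 3.2% of 32851 RefSeq promoters. The GC box, searched as CCGCCC on both strands, matched 2 times, the nearer from 17 to 12 bases before the start, and was present in 32.7% of promoters. CCAAT matched once, from 151 to 147 bases before the start, against 33.8% of promoters with a match. No match was found for TATAAA (held by 12.4% of promoters), GGATTA (6.25%) or TAATTG (7.17%). CANNTG matched once, against 66.2%. These are matches of letters and carry no measurement of binding, and the array does not measure this region.

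Klf17 transcript was high in the oocyte and the 1-cell embryo, highest in the 2-cell embryo and lower in 8-cell embryos. In the blastocyst the brighter probe set lay near the table median of 82.6 and the dimmer near an intensity of 20, at or below which 20.1% of all values lie. Probe set 1456561_s_at read 4423.5, 4293.6, 5207.1 and 5794.9 on the 4 oocyte arrays and 5921.6, 4550.0, 6798.2 and 6206.3 on the 1-cell arrays. It read 12077.5, 10692.2, 11385.3 and 7513.7 on the 2-cell arrays, then 2280.7, 2233.6, 1976.7 and 2237.1 on the 8-cell arrays. In the blastocyst it read 152.4, 76.5, 72.9 and 74.6. The oocyte and 1-cell values overlap, whereas the values of every other pair of stages do not: all 4 of the 2-cell arrays lay above all oocyte and 1-cell arrays, and all 4 of the blastocyst arrays lay below every other array. How many of all tested probe sets separate in this way was not counted, so the separation is not shown to be particular to Klf17.

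The second probe set, 1438899_at, gave the same order of stage means. The intensity of the brighter was 12.7 ± 3.71 (SD, n = 4) times that of the dimmer in oocytes, 14.5 ± 2.16 times in 8-cell embryos and 8.0 ± 3.56 times in blastocysts. The blastocyst ratio divides by dimmer values of 7.8 to 21.2, at the dim end of the scale, so it does not show that the probe sets part there. The dimmer read 394.0, 451.0, 434.9 and 321.1 in oocytes and 482.9, 295.0, 671.0 and 842.4 on the 1-cell arrays. It read 1345.3, 855.9, 746.0 and 639.7 on the 2-cell arrays. The 8-cell arrays read 161.5, 139.7, 121.0 and 192.5, and the blastocyst arrays 12.7, 21.2, 7.8 and 10.6. Here the 1-cell values overlap with those of both the oocyte and the 2-cell stage, and the other pairs of stages do not overlap, again without a count over all tested probe sets. Both probe sets are annotated to the same source sequence, so they are not independent measurements of the gene, and a probe set of the s_at type can match several transcripts. Their deviations from the stage means correlated with r = 0.423 over the 20 arrays, which share the same RNA and the same scaling.

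**Figure D1:**
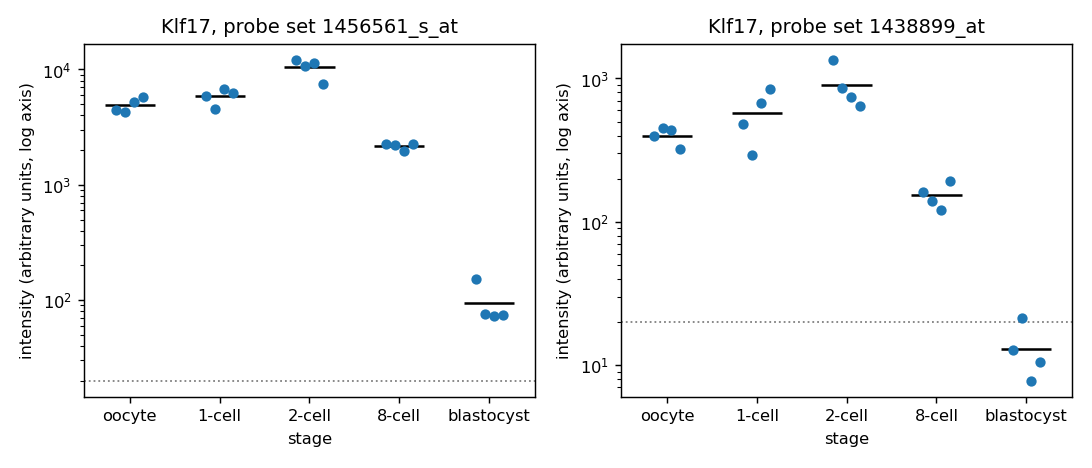
Intensity of Klf17 on each array (points, log axis, arbitrary units as scaled by the authors) by stage, with 4 arrays per stage and a bar at the stage mean, for probe sets 1456561_s_at (left) and 1438899_at (right). The dotted line is at 20, the constant added before logarithms. In both panels the 2-cell mean is the highest and the 4 blastocyst arrays, at 72.9 to 152.4 and at 7.8 to 21.2, lie below all others.

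From the oocyte to the 1-cell stage no change of Klf17 was called. The question of this step is what happens to stored maternal transcripts around fertilization. Probe set 1456561_s_at went from 4930 ± 704 (SD, n = 4) to 5869 ± 952, with a log2 change of 0.25 ± 0.20 (SE; adjusted p = 0.598 by limma with Benjamini-Hochberg adjustment over 15234 tested probe sets; 95% interval from -0.16 to 0.65). Probe set 1438899_at went from 400.2 ± 58.0 to 572.8 ± 236, with a log2 change of 0.41 (adjusted p = 0.477, 95% interval from -0.14 to 0.96). All log2 changes are of log2(intensity + 20), a scale that understates the change of dim values. Both intervals reach from a slight fall to a rise, so a modest rise at this step is not distinguished from none. Over all tested probe sets 6.93% were called in this comparison. On the same arrays the middle control probe set for 18S ribosomal RNA read 650.2 ± 197 in oocytes and 37010 ± 4510 at the 1-cell stage, and its part in this comparison was not tested.

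From the 1-cell to the 2-cell stage, across which the mouse embryonic genome becomes active, the brighter probe set rose and the dimmer one did not pass. Probe set 1456561_s_at rose to 10420 ± 2020 (SD, n = 4), 1.77 times the 1-cell mean, by 0.82 ± 0.20 log2 units (SE; adjusted p = 0.00327 by limma), and was higher in 4 of 4 arrays. Probe set 1438899_at read 896.7 ± 312, a log2 change of 0.67 ± 0.27 (adjusted p = 0.0764), which passed without 1-cell replicate 4 (0.88, adjusted p = 0.0203). Rises were called for 12.2% of tested probe sets, and that of the brighter Klf17 probe set was the 2136th largest log2 change. The size of the rise varied with the scaling of the arrays. The log2 change was 1.47 after quantile normalization and 0.63 with each array centred on its median, the highest and lowest of 10 other choices of processing. Over this step the 18S control probe sets, which were not in the fit, read lower, the middle one going from 37010 ± 4510 to 2004 ± 308, the 3′ one from 14490 ± 826 to 2743 ± 1190 and the 5′ one from 22840 ± 3100 to 2169 ± 907 (SD, n = 4), and their part in the rise was not tested. In bulk RNA from whole embryos, more transcript per cell and a change in the amount of other RNA cannot be told apart.

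Against the oocyte, both probe sets were about doubled at the 2-cell stage. Probe set 1456561_s_at was higher by 1.06 ± 0.20 log2 units (SE; adjusted p = 0.000227 by limma) and 1438899_at by 1.08 ± 0.27 (adjusted p = 0.00378), beside 11.9% of tested probe sets called higher. In linear intensity the means were 2.11 and 2.24 times those of the oocyte. After quantile normalization the change of the brighter probe set was 1.62, and the lowest under 10 other choices of processing was 0.89. The 2-cell stage was tested as a peak, higher than each of the other 4 stages, and passed for 1456561_s_at (smallest log2 difference 0.82, adjusted p = 0.0235 by limma) but not for 1438899_at (smallest difference 0.67, adjusted p = 0.571). A 2-cell peak of this kind was called for 0.939% of tested probe sets. The call was lost with each array centred on its median (adjusted p = 0.258) and without the intensity trend (adjusted p = 0.0794). Leaving out 1-cell replicate 1 gave 0.0514, 1-cell replicate 2 gave 0.126, and leaving out 2-cell replicate 1, 2 or 3 gave 0.102, 0.0783 and 0.0914, all adjusted p by limma.

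From the 2-cell to the 8-cell stage Klf17 fell on both probe sets by nearly the same amount. The brighter probe set dropped to 2182 ± 139 (SD, n = 4), with a log2 change of -2.22 ± 0.20 (SE; adjusted p = 3.11e-09 by limma). The dimmer dropped to 153.7 ± 30.7, with a log2 change of -2.36 ± 0.27 (adjusted p = 1.53e-07). The 2-cell mean was 4.77 and 5.84 times the 8-cell mean. Falls were called for 13.4% of tested probe sets, among which those of Klf17 were the 470th and 412th largest. The 8-cell level was also below that of the oocyte, with log2 changes of -1.16 and -1.28 (adjusted p = 3.56e-05 and 0.000356, with 16.8% of tested probe sets called lower). It was below that of the 1-cell stage by more, with changes of -1.41 and -1.69 (adjusted p = 2.32e-06 and 1.11e-05, with 16.8% called lower). Both comparisons of the brighter probe set shrank after quantile normalization, to -0.54 (adjusted p = 0.0451) against the oocyte and -0.68 (adjusted p = 0.0107) against the 1-cell stage.

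The fall from the 8-cell stage to the blastocyst was among the largest on the array. Probe set 1456561_s_at went from 2182 ± 139 (SD, n = 4) to 94.1 ± 38.9, with a log2 change of -4.32 ± 0.20 (SE; adjusted p = 2.1e-13 by limma), which was the 2nd largest fall of 15234 tested probe sets. The larger one, named here after its value was seen, was that of Obox6, a homeobox gene of the early embryo, at -5.81 ± 0.18. The dimmer Klf17 probe set went from 153.7 ± 30.7 to 13.07 ± 5.78, with a log2 change of -2.39 ± 0.27 (adjusted p = 3.75e-07). Falls were called for 6.58% of tested probe sets. The blastocyst values of 1438899_at lie around the added constant of 20, so its log2 change is limited by the dim end of the scale: it was -3.17 with a constant of 5 and -1.32 with a constant of 80. In linear intensity the 8-cell mean was 23.2 times the blastocyst mean on the brighter probe set, and no fold is given for the dimmer. Without blastocyst replicate 1, whose 152.4 stood above the other 3 arrays, the change of the brighter probe set was -4.54.

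The order of stage means was blastocyst, 8-cell, oocyte, 1-cell and 2-cell, from lowest to highest, on both probe sets. The neighbours oocyte and 1-cell did not differ beyond their spread, nor did 1-cell and 2-cell on 1438899_at. All other pairs differed by limma. Over the 20 comparisons of 2 stages on 2 probe sets, an exact two-sided permutation test gave p = 0.0286, the smallest that 4 against 4 arrays allow, for every pair but those 3, and 0.0336 after adjustment over the 20 tests. The share of all tested probe sets that reach this smallest p was not counted, so reaching it does not set Klf17 apart from other genes. For the remaining 3 the exact permutation test gave p = 0.143 and 0.257 for oocyte against 1-cell and p = 0.171 for 1-cell against 2-cell on 1438899_at. The full decline from the 2-cell stage to the blastocyst was -6.55 ± 0.20 log2 units (SE; adjusted p = 1.66e-17 by limma) on 1456561_s_at, the 10th largest fall of all tested, and -4.75 ± 0.27 (adjusted p = 5.62e-13) on 1438899_at, with 14.5% of tested probe sets called lower. Against the oocyte the log2 changes of the blastocyst were -5.48 and -3.67 (adjusted p = 1.26e-16 and 3.93e-11, with 16.1% called lower), and against the 1-cell stage -5.73 and -4.08 (adjusted p = 5.63e-17 and 4.38e-12, with 16.6% called lower). The blastocyst values of 1438899_at lie around the added constant of 20, so the size of its changes depends on the processing. Under 10 other choices they were -5.63 to -3.34 against the 2-cell stage, -4.53 to -2.36 against the oocyte and -4.95 to -2.73 against the 1-cell stage. Among the stages as a whole Klf17 changed by the moderated F test of limma (adjusted p = 7.24e-18 and 7.26e-13), as did 53.0% of tested probe sets.

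**Figure D2:**
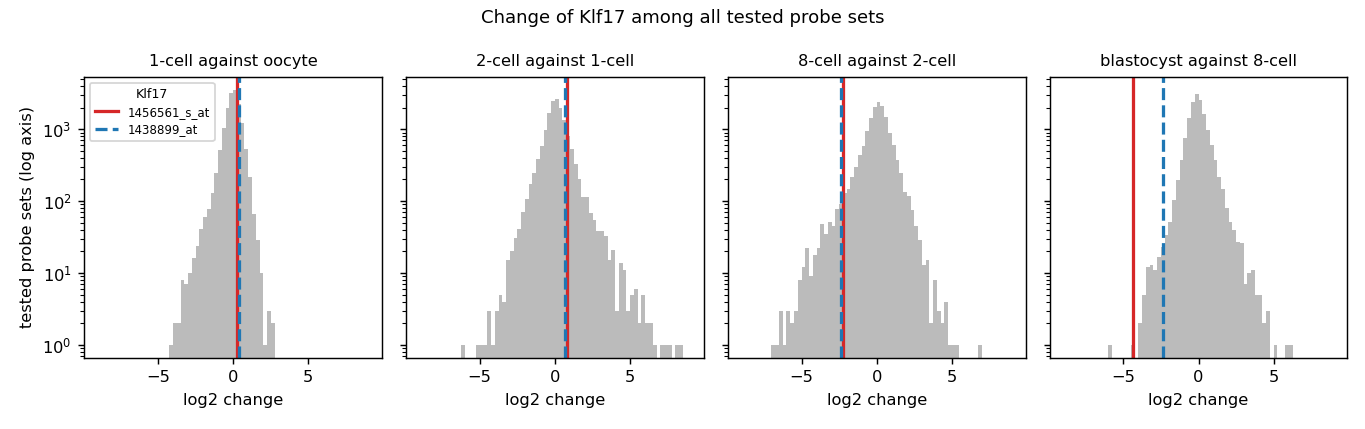
Histograms of the log2 change of all 15234 tested probe sets (grey, log axis) in the 4 consecutive comparisons, with the 2 Klf17 probe sets as vertical lines (solid, 1456561_s_at; dashed, 1438899_at). The lines lie within the bulk up to the 2-cell stage. They are at -2.22 and -2.36 for the 8-cell against the 2-cell stage and at -4.32 and -2.39 for the blastocyst against the 8-cell stage, where the solid line is at the far end of the distribution.

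Of the rest of the family, 13 probe sets stand for 6 genes on this array: Klf3 and Klf12 with 4 each, Klf6 with 2, and Klf5, Klf11 and Klf14 with 1 each. Other members of the family were not analysed here. Of the 13, 9 passed the filter on dim values, which asks for an intensity of at least 82.6, the median of the table, on 4 or more arrays. Of these 9, 1 was called between oocyte and 1-cell embryo, 2 on entry to the 2-cell stage, 2 on entry to the 8-cell stage and 1 in the blastocyst against the 8-cell stage. The last was a Klf6 probe set that passed the filter only through its 4 blastocyst arrays, so that call is no independent result. The shares of all tested probe sets called in either direction were 6.93%, 21.5%, 27.5% and 14.6%. The 4 that did not pass, 3 of Klf12 and 1 of Klf3, did not exceed an intensity of 76.4 on any array.

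Klf6, a broadly expressed factor, moved opposite to Klf17 at the last step. Its probe set 1447448_s_at read between 1.1 and 40.6 on the 16 arrays up to the 8-cell stage, and 663.0, 624.8, 612.2 and 718.9 in the blastocyst. The change from 8-cell to blastocyst, over which Klf17 fell, was 3.85 ± 0.36 log2 units (SE), with 7.98% of tested probe sets called higher. This probe set passed the filter on dim values only through its 4 blastocyst arrays, so no p is given for it. Its 8-cell values lie around the added constant of 20, and the change was 2.77 to 4.45 under 10 other choices of processing. The second Klf6 probe set, 1459718_x_at, read 64.7 to 143.1 at the 8-cell stage and 146.5 to 170.7 in the blastocyst, a change of 0.59 that did not pass (adjusted p = 0.30). It had changed by 0.96 from 2-cell to 8-cell (adjusted p = 0.042), a call that was lost under 7 of the 9 other choices of processing that kept the probe set. It was also lost without 2-cell replicate 1, 2 or 4 or 8-cell replicate 1, 2 or 4, with log2 changes of 0.79 to 0.99. Probe sets of the x_at type can also bind related sequences.

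Klf3, a repressor that acts through the corepressor Ctbp, gave probe sets that disagreed. Its probe set 1441200_at was highest in the oocyte and 1-cell embryo, at 205.4 to 367.3 and 324.5 to 695.9, and fell at the 2-cell stage to 49.6 to 209.1 (log2 change -1.84 ± 0.44, SE; adjusted p = 0.00309 by limma). Another, 1454666_at, read 80.1 to 172.6 at the 2-cell stage and rose to 243.3 to 469.7 at the 8-cell stage (1.33 ± 0.34; adjusted p = 0.00459). The third tested probe set, 1458487_at, read 13.1 to 128.7 and was called in no consecutive comparison. No direction can therefore be given for Klf3 as a gene.

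Klf11, a factor of the TGF-beta response, was present at every stage. It read 536.9 to 1012.2 in oocytes, 1093.0 to 1656.6 in 1-cell embryos and 462.7 to 919.7 in 2-cell embryos. Its rise of 0.70 log2 units to the 1-cell stage (adjusted p = 0.0352 by limma) and its later change of -0.85 (adjusted p = 0.00287) left the 1-cell mean as its highest, but as a peak above all other stages it did not pass (smallest difference 0.70, adjusted p = 0.124). The rise was lost under 4 of 10 other choices of processing and the fall after quantile normalization (adjusted p = 0.0532). The rise was also lost without oocyte replicate 3 (0.67) or 4 (0.53) or 1-cell replicate 1 (0.70) or 4 (0.57). A change of -0.35 on entry to the 8-cell stage was called only without 2-cell replicate 3 (-0.54, adjusted p = 0.0486). Klf5, a factor of early embryos and epithelia, read 24.8 to 116.2 over the 20 arrays, Klf14 read 20 to 237.8 and the tested Klf12 probe set 23.1 to 106.7. None of Klf5, Klf14 and Klf12 was called in any consecutive comparison.

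**Figure D3:**
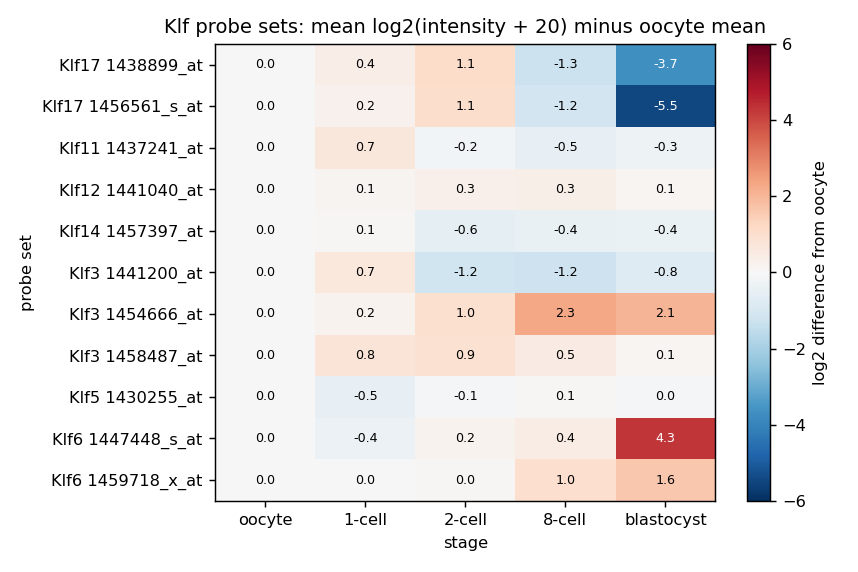
Mean log2(intensity + 20) of each tested Klf probe set at each stage (n = 4 arrays) minus its own oocyte mean, so that each row can be read for changes but rows cannot be compared for level. The 2 Klf17 probe sets end at -5.48 and -3.67 in the blastocyst, and Klf6 1447448_s_at is the probe set with the largest gain there.

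The genes whose course over the 20 arrays was most like that of Klf17 were found by Pearson's correlation of log2(intensity + 20) with probe set 1456561_s_at, over 6206 named genes. All points share the arrays and their stages, so r is given as a description. The second Klf17 probe set correlated at 0.97, and the median over tested probe sets was -0.06. The 10 highest were Nexn (0.943), Efhb (0.94), Csnk1g3 (0.938), Nin (0.933), Septin3 (0.929), Mbd3l2 (0.929), Kdm7a (0.924), Fam214a (0.923), Sycp2 (0.922) and Csrnp2 (0.92). Nexn, which encodes an actin-binding protein, read 5057 ± 926 (SD, n = 4), 7282 ± 1280, 5826 ± 492, 995.1 ± 106 and 98.2 ± 70.5 from oocyte to blastocyst. Mbd3l2, related to the methyl-CpG-binding protein Mbd3, read 4427 ± 818, 8361 ± 659, 6681 ± 1560, 837.2 ± 207 and 191.1 ± 66.2 in the same order. Sycp2, a protein of the meiotic synaptonemal complex, read 654.8 ± 147 in oocytes and 41.2 ± 23.9 in blastocysts. Efhb, Csnk1g3 and Septin3 shared the highest mean at the 2-cell stage with Klf17, and the other 7 had theirs in the oocyte or at the 1-cell stage. From 8-cell to blastocyst their log2 changes were -3.33 to -1.61, a fall that their choice by likeness to Klf17 sets and that is no test. Membership of the 10 depended on the measure: 1 was kept with Spearman's correlation, 1 with correlation over the 5 stage means and 7 after quantile normalization.

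The 5 courses most opposite to that of Klf17 were those of Csta1 (r = -0.966), Ctbp1 (-0.966), Ogfod1 (-0.965), Cdyl2 (-0.964) and Slc15a2 (-0.963). Ctbp1 encodes a corepressor that several Kruppel-like factors recruit, and was one of the cofactors listed for the family. It read 413.5 ± 55.4 (SD, n = 4) in oocytes, 395.9 ± 57.1 in 2-cell embryos, 637.9 ± 99.9 in 8-cell embryos and 1502 ± 201 in blastocysts. Csta1, a protease inhibitor of epithelia, read 22.7 ± 12.7 in oocytes and 3065 ± 648 in the blastocyst, and Slc15a2, a peptide transporter, 198.4 ± 6.16 and 6745 ± 1740. From 8-cell to blastocyst the 5 changed by 1.21 to 4.57 log2 units, which again follows from how they were chosen.

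**Figure D4:**
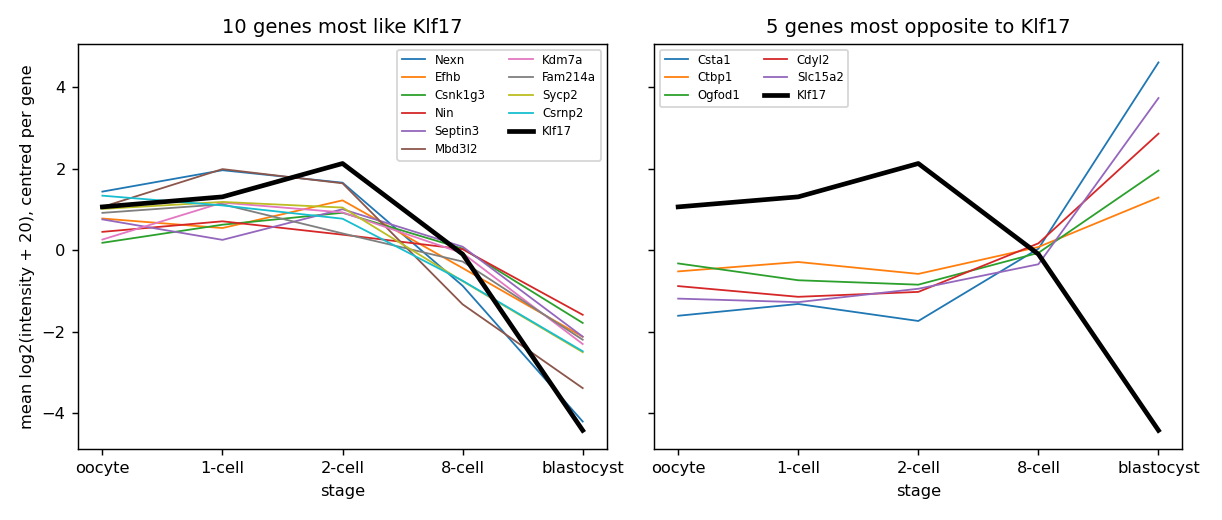
Stage means (n = 4 arrays) of log2(intensity + 20), centred per gene, for Klf17 probe set 1456561_s_at (thick black) with the 10 genes of highest correlation over 20 arrays (left) and the 5 of lowest (right). The lines on the left end low in the blastocyst and those on the right end high, with Ctbp1 the flattest of the 5.

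Genes listed as cofactors of Kruppel-like factors did not all move in the same direction while Klf17 fell. Of 22 listed, 8 were measured. On entry to the 2-cell stage 2 rose, 1 fell and 5 did not pass, beside 12.2% and 9.34% of tested probe sets called higher and lower. On entry to the 8-cell stage 3 rose, 2 fell and 3 did not pass, beside 14.1% and 13.4%. From 8-cell to blastocyst 2 rose, 1 fell and 5 did not pass, beside 7.98% and 6.58%. Named by the rule for lists, Sap130 of the Sin3 corepressor complex went from 635.8 ± 86.0 (SD, n = 4) to 1158 ± 391 and then to 536.5 ± 26.2, rising and falling with Klf17. The acetyltransferase Ep300 rose from 475.1 ± 131 to 805.5 ± 144 from 1-cell to 2-cell. The 1 that fell there was Btrc, a ubiquitin ligase adaptor that the list also holds, from 359.4 ± 51.4 to 228 ± 44.1. From 2-cell to 8-cell Sin3b fell from 506.8 ± 120 to 236.4 ± 89.5 and the deacetylase Hdac2 rose from 1407 ± 502 to 2384 ± 599. The related Sp factors bind the same GC boxes, and 3 of 9 were measured. None was called on entry to the 2-cell stage, whereas Sp1 rose from 513.6 ± 25.5 to 1520 ± 120 and Sp6 from 289.5 ± 30.5 to 477.1 ± 27.0 from 2-cell to 8-cell, as Klf17 fell.

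Klf17 was set beside the lists of its own period. Of 28 measured genes listed for RNA polymerase II transcription, on which activation of the genome depends, 12 rose and 3 fell on entry to the 2-cell stage. The Klf17 mean was highest at that stage. The median log2 change of the 28 was 0.38, against 0.07 over all tested probe sets, of which 12.2% were called higher and 9.34% lower. The 12 that rose included Ccnt1, from 49.0 ± 38.9 (SD, n = 4) to 598.7 ± 236, Cdk19, from 32.7 ± 1.35 to 354.1 ± 72.4, and Gtf2e1, from 85.2 ± 35.6 to 330.8 ± 54.7. From 2-cell to 8-cell 5 rose and 5 fell, beside 14.1% and 13.4% over all tested probe sets. Taf9b, Taf3 and Taf5, subunits of the factor TFIID, were among those that fell, with log2 changes of -4.48, -3.18 and -1.96. Of 11 other cleavage-stage activation genes, 6 rose and 1 fell from 1-cell to 2-cell (median 2.27), beside the same 12.2% and 9.34%. Obox6, Ubtfl1 and Pramel18 led them by 7.04, 6.66 and 5.43 log2 units, where the brighter Klf17 probe set changed by 0.82. The 11 genes were listed for activation at cleavage, with earlier results of these data known, so their rise is no test. From 2-cell to 8-cell 3 of the 11 rose and 4 fell, beside 14.1% and 13.4%, Pramel18 by -5.57, Obox5 by -4.86 and Ubtfl1 by -1.72 log2 units.

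Of the genes listed as oocyte transcription factors and maternal-effect genes, most of those measured fell already at the 2-cell stage. Of 17 measured, 10 fell and 2 rose from 1-cell to 2-cell (median log2 change -1.3), beside 9.34% and 12.2% of tested probe sets called lower and higher. Klf17 was not called lower at this step. Pabpn1l, Zar1 and Ooep changed by -5.25, -3.62 and -2.73 log2 units. From 2-cell to 8-cell 10 again fell and 3 rose (median -1.49, against 0.10 over all tested probe sets, with 13.4% called lower and 14.1% higher), with Bmp15 at -5.38, Oosp3 at -5.13 and Oosp2 at -5.05, each more than the -2.22 of Klf17. No test was made of the difference between Klf17 and these lists, which were chosen with earlier results of these data known.

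Markers of other cells were looked up beside these results. The oocyte marker Bmp15, the only 1 of 9 listed that the array reads, was 2515 to 3208 in oocytes and 4.6 to 37.1 in blastocysts. It also read 3695 to 4711 in 1-cell and 1525 to 2977 in 2-cell embryos, so it does not mark the oocyte alone. None of 11 trophectoderm markers and 3 of 8 inner cell mass markers are read, so the blastocyst label was checked only by the latter, whose summed intensity was 380.6 to 441.6 in oocytes, 1235 to 1399 in 8-cell embryos and 937.9 to 1400 in blastocysts, and so does not separate the last 2. For cumulus and granulosa cells 8 of 25 markers are read, with a summed intensity of 1558 to 1930 in oocytes, 1207 to 1702 in 1-cell, 2920 to 3486 in 2-cell and 1927 to 2201 in 8-cell embryos, and 1206 to 1667 in blastocysts. The sum was highest at the 2-cell stage, as Klf17 was. Of the 7 tested markers 1 was called higher there than at the 1-cell stage, 1 was called lower and 5 did not pass. The shares of all tested probe sets were 12.2% higher and 9.34% lower. The median log2 change of the 7 was -0.14, against 0.07 over all. The part of these markers in the level of Klf17 was not tested. For sperm 6 of 21 markers are read, with sums of 304.8 to 1052 over all stages. For blood and the reproductive tract only Ptprc of 14 is read, at 1.9 to 76.8.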

How the data were processed

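Deposited values were used for 20 Affymetrix MOE430B arrays, 4 at each of 5 stages named in the titles. They are linear intensities, 1 per probe set, scaled by the authors: from the values, the mean left after trimming 2% at each end is 150 on every array. For scanner software and probe summarization, the sources used here give no name, and the table holds no detection calls. Of 22575 probe sets 64 are controls. Symbols come from the platform annotation, updated through Entrez identifiers against the gene table of GRCm38.p6, which held 14486 of 14661. Promoter sequence is from RefSeq.

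Intensities were transformed to log2(value + 20) and 15234 probe sets that reached 82.6, the table median, on 4 or more arrays were tested. A mean per stage was estimated with limma 3.58.1 under R 4.3.3 from the 20 arrays together (15 degrees of freedom for the spread, variance following intensity), with Benjamini-Hochberg adjustment within each of 10 comparisons at 0.05. A peak took the largest one-sided p against the other 4 stages. The fit was tested on simulated data. Named genes are Klf17, all Klf probe sets, the 10 most like and 5 most opposite by correlation, and the 3 called list members with the largest change in 2-cell against 1-cell and 8-cell against 2-cell. Listed genes were each read by their brightest probe set, with Klf17 itself left out of its lists. Members and lists were chosen with earlier results of these data known.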

Additional observations from a re-analysis of the deposited data

Results flagged for a closer look

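Dixon's ratio at its 95% critical value was used to look for an array that stands apart within a stage, in 285 groups of 4 arrays for the 57 probe sets named. There were 18 such groups, and chance flags about 1 in 20. Of these, 2 concern Klf17 probe set 1456561_s_at: blastocyst replicate 1 at 152.4, with the next array at 76.5, and 8-cell replicate 3 at 1976.7, with the next at 2233.6. On the second Klf17 probe set blastocyst replicate 1 read 12.7, between its fellows. Among family members and cofactors, Klf3 1441200_at read 205.4 on oocyte replicate 3, Sp1 551.4 on 2-cell replicate 1, Sin3b 103.5 on 8-cell replicate 1 and Hdac2 1749.3 on 1-cell replicate 3. Among genes like or opposite to Klf17, Kdm7a read 381.6 on oocyte replicate 1, Csrnp2 222.8 on blastocyst replicate 3 and Csta1 1.7 on 2-cell replicate 2. Among listed genes, Taf9b read 12.6 on blastocyst replicate 3, Taf3 1096.2 on 1-cell replicate 3 and Obox6 21768.3 on 8-cell replicate 1. Tbx3 read 26.9 and Sall1 91.1 on 2-cell replicate 4, and Ooep 3928 on 2-cell replicate 1. Bmp15 read 124.7 at the 8-cell stage and 37.1 in the blastocyst, both on replicate 4, and Smad3 464.9 on 8-cell replicate 4.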

How the results depend on the processing

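All 10 comparisons of Klf17 probe set 1456561_s_at kept their direction and side of the threshold under the 30 alternatives run: 10 choices of processing and 20 single arrays left out. The 2-cell peak was 0.63 with median centring and 0.82 without trend, both no longer called, and 0.70 to 0.97 with an array left out. On 1438899_at the rise to the 2-cell stage became called with a constant of 80 (0.61), quantile normalization (0.75), array weights (0.71) or without 1-cell replicate 4 (0.88). Median centring moved the median change over all probe sets from 0.07 to -0.11 for 2-cell against 1-cell. Other Klf probe sets called from oocyte to 1-cell numbered 0 with no filter, quantile normalization, no trend or only the 2 stages fitted, and 0 to 1 with an array left out. From 1-cell to 2-cell they numbered 1 after quantile normalization. From 2-cell to 8-cell they numbered 1 with a constant of 5, no filter, the 75th percentile filter, either other scaling, array weights or only the 2 stages fitted, and 1 to 3 with an array left out. Of the 10 genes most like Klf17, 1 was kept by Spearman's correlation and 1 by stage means.

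Changes that were never called crossed 0: Klf6 1459718_x_at at 0.0055 (constant of 5) from oocyte to 1-cell, and at -0.1042 (quantile) and -0.1049 (centring) from 1-cell to 2-cell; Klf12 at -0.03592 and -0.0352 (quantile) and -0.03928 and -0.0331 (centring) from 1-cell to 2-cell and 2-cell to 8-cell, and at -0.010 (weights) from oocyte to 1-cell; and Klf3 1458487_at at -0.017 (centring). With an array left out, Klf12 ranged from -0.10 to 0.36, -0.11 to 0.39 and -0.18 to 0.31 over the first 3 steps, and Klf14 from -0.14 to 0.23, -0.38 to 0.35 and -0.14 to 0.30 over all steps but 2-cell against 1-cell. Klf3 1441200_at ranged from -0.41 to 0.40 from 2-cell to 8-cell, and Klf3 1454666_at from -0.089 to 0.46 over the first step. Klf5 ranged from -0.010 to 0.35 and -0.31 to 0.22 over the last steps, and Klf6 1459718_x_at from -0.28 to 0.17 and -0.22 to 0.25 over the first and second.

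Replicate numbers recur in every stage, but nothing in the labels says that they pair samples. Same-numbered arrays of different stages deviated together with r from -0.0616 to 0.0635, and 4 of 20 arrays correlated best with their own number. With the replicate block no Klf17 call changed, and 1 other Klf probe set was called from 2-cell to 8-cell instead of 2. Causes of these changes were not tested. Dim values near 20 limit the fold in the blastocyst.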

Other observations

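Klf2, Klf4 and Klf5 belong to the pluripotency network of the mouse, and Klf17 is set beside that network in human embryos. Of 36 listed pluripotency genes 12 were measured. On entry to the 2-cell stage 3 rose and 1 fell, and on entry to the 8-cell stage 5 rose and 2 fell, beside 12.2% higher and 9.34% lower, then 14.1% higher and 13.4% lower, over all tested probe sets. L1td1, an RNA-binding protein of pluripotent cells, rose from 24.8 ± 19.8 (SD, n = 4) to 928.4 ± 37.5 from 1-cell to 2-cell, the dioxygenase Tet1 from 71.5 ± 27.6 to 291 ± 61.2, and Il6st, a receptor subunit of the LIF pathway, fell from 1368 ± 320 to 238.4 ± 29.6. From 2-cell to 8-cell Tbx3 rose from 111.4 ± 56.7 to 527.1 ± 181 and Sall1 from 49.1 ± 28.3 to 272.8 ± 34.6, while Il6st fell further to 64.2 ± 47.3. From 8-cell to blastocyst, where Klf17 fell to its lowest, 4 of the 12 rose and 2 fell, beside 7.98% and 6.58% of tested probe sets.

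Human KLF17 has been studied as a gene that holds back the epithelial-mesenchymal transition. Of 29 listed genes of that transition 7 were measured, of which 2 rose and 1 fell both on entry to the 2-cell stage (beside 12.2% and 9.34% of tested probe sets) and to the 8-cell stage (14.1% and 13.4%). Ocln, a tight junction protein, rose from 35.7 ± 7.17 (SD, n = 4) to 133 ± 47.6 and then to 438.8 ± 62.4. Epcam rose from 189.9 ± 81.7 to 437.6 ± 99.2 and to 893.4 ± 57.5, on an x_at probe set. Smad3, a mediator of TGF-beta signals, fell from 3378 ± 683 to 1159 ± 43.5 and to 389.4 ± 50.7. From 8-cell to blastocyst 2 of the 7 rose and 5 did not pass, beside 7.98% of tested probe sets called higher and 6.58% lower.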
